A study of Homo sapiens with 90 samples.

Results

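Cultures of HepG2, an established cell line from a human liver tumour, were given 10 µM fenbuconazole for 24 h, and their expression was compared with that of cells given the DMSO vehicle alone. Fenbuconazole is a triazole fungicide. The comparison held 6 of the 90 columns of the series: the 3 arrays at the highest dose and the 3 DMSO arrays that were normalized together with the fenbuconazole arrays. All wells of both groups, treated and control, contained 0.2% DMSO, and exposure began 24 h after plating in multiwell plates. The remaining arrays of the fenbuconazole set, 24 at 8 doses from 0.001 to 3 µM, entered the fit for the spread between replicates and served to follow the dose course. The same 10 µM dose of imazalil, an imidazole fungicide, and of 2,4-D, a chlorophenoxy herbicide, was used for comparison, with 3 arrays each. Columns were chosen by their labels, and each of 19774 genes was represented by 1 probe set, so no measured change entered the choice. HepG2 is 1 line without the other cells of the liver, and nothing in the labels says whether the 3 replicates came from separate cultures, so that p-values measure the spread between these arrays, which may be technical.

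Azole fungicides block lanosterol demethylase of fungi, a cytochrome P450 whose human counterpart, encoded by CYP51A1, acts in the middle of cholesterol synthesis. When membrane sterols fall, the SREBP factors are released and switch on the genes of cholesterol and fatty acid synthesis. Azoles are also known as ligands of xenobiotic receptors in liver: the aryl hydrocarbon receptor (AHR), whose classic target is CYP1A1, and PXR and CAR, which control CYP3A and CYP2B enzymes.

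The 6 arrays were alike in their basic properties. Array medians lay between 2.97 and 3.04 (log2 intensity) with DMSO and between 2.99 and 3.05 at 10 µM, and pairs of arrays had correlations of 0.995 to 0.998 over the genes, which are no independent replicates. Their number, 3 per group, limits the precision. The interquartile range of the values was 3.01 ± 0.08 with DMSO and 2.96 ± 0.06 at 10 µM (mean ± SD, n = 3). The 3' minus 5' signal of the GAPDH control probe sets, a sign of RNA integrity, was -0.09 ± 0.02 with DMSO and -0.12 ± 0.04 at 10 µM. For ACTB it was 0.40 ± 0.14 and 0.32 ± 0.12, with DMSO array 1 apart at 0.57. Of 10 hepatocyte and HepG2 markers 8 were measured, and all 8 were strong, between 10.07 (TTR) and 13.07 (ALB) with DMSO, with log2 changes between -0.09 and 0.04. Of 10 mesenchymal markers, 2 had a mean of 4 or more, the higher being ACTA2 at 8.18, and of 11 measured markers of blood and endothelial cells, 1 did, LYZ at 10.93. The other mesenchymal marker over 4 was COL1A1 at 4.28, while its partner COL1A2 was at 2.95. The leukocyte marker PTPRC (2.59) and the endothelial marker PECAM1 (3.66) were under 4.

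Across the genome the treated and control groups differed little. The median log2 change of all genes was -0.001, and 49.7% of genes lay above DMSO. At an adjusted p under 0.05 (limma, Benjamini-Hochberg over all genes) 3 genes passed, or 0.0152% of 19774: 2 up (0.0101%) and 1 down (0.00506%). At an unadjusted p under 0.05 there were 505 genes up (2.55%) and 433 down (2.19%), together 4.74%. All 3 treated arrays lay above all 3 DMSO arrays for 957 genes (4.84%) and below them for 833 genes (4.21%). These shares, with the counts of the brighter genes given next, are the background against which the counts in the gene groups that follow have to be read.

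The size of the changes depended on the level of the gene. The SD of the log2 change across genes was 0.12 for 7370 genes with a mean under 3, was wider at 0.16 for 2674 genes between 4 and 6, and was 0.08 for 3398 genes at 8 or over. Changes of 1.5-fold or more were found for 2 genes upward and 8 downward, and the groups of 3 did not overlap for 2 and 6 of these. Among the genes with a mean of 4 or more, 43.1% lay above DMSO and the median log2 change was -0.02. Of these 9769 genes, 180 were up and 262 down at an unadjusted p under 0.05 (limma). All 3 treated arrays lay above DMSO for 396 of them and below for 498. Lists made up mostly of such genes start from this downward background.

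**Figure D1:**
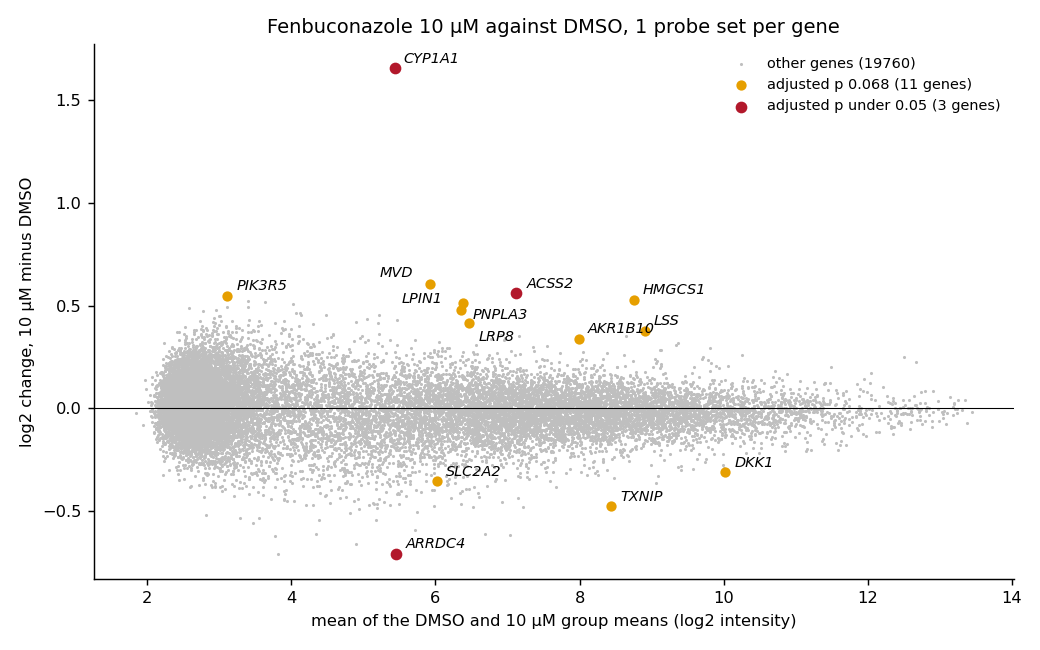
Log2 change at 10 µM fenbuconazole against DMSO (vertical axis) by mean log2 intensity (horizontal axis), 1 point per gene. The 3 genes with an adjusted p under 0.05 and the 11 genes at 0.0681 are coloured and named, and CYP1A1 lies apart at 1.65.

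CYP1A1, ACSS2 and ARRDC4 changed at 10 µM. CYP1A1 (Entrez gene 1543), the AHR target that oxidizes aromatic compounds, read 4.30, 4.85 and 4.66 on the DMSO arrays and 5.91, 6.41 and 6.47 (log2 intensity) on the treated arrays. The lowest treated array was above the highest DMSO array by more than either group's own range. The log2 change was 1.65 ± 0.22 (SE), a 3.15-fold rise (95% interval 2.32 to 4.28, limma, adjusted p = 5.5e-04).

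ACSS2 (Entrez gene 55902), the enzyme that makes acetyl-CoA from acetate and a known SREBP target, read 6.91, 6.90 and 6.70 with DMSO and 7.48, 7.30 and 7.42 at 10 µM. The groups did not overlap. The rise was 1.48-fold (interval 1.29 to 1.69, log2 0.56 ± 0.09, limma, adjusted p = 0.0201). This call was the least stable of the 3: it ended without DMSO replicate 3 (limma, adjusted p = 0.168), without DMSO replicate 1 (0.0561) and without 10 µM replicate 1 (0.103) or 3 (0.0954). Without replicate 1 or 2 of every group, or in the 2 groups alone, the calls of CYP1A1 and ARRDC4 ended too, and that of ARRDC4 also without replicate 3.

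ARRDC4 (Entrez gene 91947), an arrestin-domain protein that holds back glucose uptake, was the 1 gene that fell. It read 5.85, 5.74 and 5.85 with DMSO and 5.17, 5.07 and 5.07 at 10 µM. The 3 treated arrays lay close together and below all DMSO arrays. The level at 10 µM was 0.613 of DMSO (interval 0.537 to 0.7, log2 -0.71 ± 0.09, limma, adjusted p = 5.5e-04).

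Another 11 genes shared an adjusted p of 0.0681 (limma), just outside the threshold, and the next gene stood at 0.193. They were 8 genes above DMSO and 3 below. HMGCS1, MVD and LSS act in cholesterol synthesis, LPIN1 and PNPLA3 in glycerolipid metabolism, and LRP8 encodes a lipoprotein receptor. AKR1B10 is an aldo-keto reductase. TXNIP, the nearest relative of ARRDC4 in function, SLC2A2, the liver glucose transporter, and DKK1, a secreted Wnt inhibitor, were the 3 below DMSO. The remaining gene, PIK3R5, was named after its values were seen. Its mean of 3.09 lies among undetected genes.

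In each of these 11 genes the groups did not overlap on single arrays. The genes were picked by their p-values on these same arrays, so the separation is no further evidence. HMGCS1, which makes HMG-CoA, read 8.56, 8.40 and 8.51 with DMSO and 9.00, 9.11 and 8.95 at 10 µM (log2 change 0.53 ± 0.10). MVD, the mevalonate diphosphate decarboxylase, read 5.68, 5.56 and 5.61 against 6.20, 6.42 and 6.05 (0.61 ± 0.12). The treated MVD arrays spread more widely than the DMSO arrays. LSS, the lanosterol synthase, read 8.69, 8.87 and 8.59 against 9.07, 9.11 and 9.10 (0.38 ± 0.08), so here the DMSO arrays were the more variable group.

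LPIN1, a phosphatidate phosphatase, read 6.07, 6.07 and 6.22 with DMSO and 6.55, 6.50 and 6.74 at 10 µM (log2 change 0.48 ± 0.10). PNPLA3, an enzyme of lipid droplets, read 6.06, 6.13 and 6.20 against 6.66, 6.76 and 6.50 (0.51 ± 0.10). In both genes the lowest treated array was clearly above the highest control array. TXNIP read 8.66, 8.69 and 8.67 with DMSO, a narrow control group, and 7.96, 8.37 and 8.26 at 10 µM (-0.48 ± 0.10). SLC2A2 read 6.32, 6.12 and 6.13 against 5.76, 5.88 and 5.87 (-0.35 ± 0.07). DKK1 read 10.16, 10.24 and 10.12 against 9.86, 9.84 and 9.90 (-0.31 ± 0.06). In these 3 genes all treated arrays lay below all DMSO arrays.

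**Figure D2:**
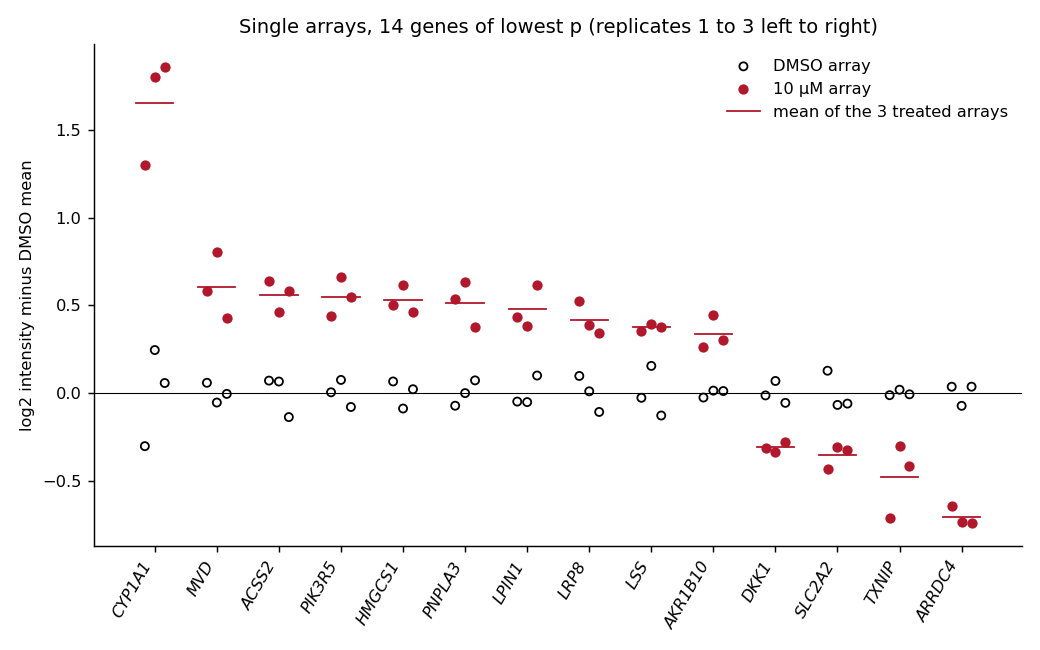
Log2 intensity minus the DMSO mean (vertical axis) for the 14 genes of lowest p (horizontal axis), with 3 DMSO arrays (open circles), 3 arrays at 10 µM (filled circles) and the mean of the treated arrays (line). In each gene the 2 groups of points are separate, by the widest margin in CYP1A1.

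Of these 14 genes, 7 had further probe sets, 12 in all, and the log2 change of each of the 12 had the same sign as the probe set used. An unadjusted p under 0.05 was reached by 5 of them. The other probe sets of TXNIP gave -0.55 and -0.43, and those of LPIN1 0.55 and 0.47. The second probe set of HMGCS1 gave 0.29 and that of PNPLA3 0.30. The 3 genes past the threshold were read by a single probe set each.

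The mevalonate pathway, which turns acetyl-CoA into the isoprenoid units of sterols, lay above DMSO in every measured member. Of 9 genes listed, 8 were measured, and 8 of 8 had a positive log2 change, with a median of 0.25 (all genes, -0.001). No member passed in limma. An unadjusted p under 0.05 was reached upward by 5 members, and for 5 the groups did not overlap. In order of the pathway, the log2 changes were 0.22 for ACAT2, 0.53 for HMGCS1, 0.31 for MVK, 0.10 for PMVK, 0.61 for MVD, 0.26 for IDI1, 0.24 for FDPS and 0.11 for GGPS1. The kinase PMVK, between MVK and MVD in the pathway, and GGPS1, on the branch away from sterols, had the smallest values, with overlapping groups. A second bright IDI1 probe set gave 0.26, and the dimmer ones gave -0.13 and -0.25.

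The steps from squalene to cholesterol gave the same picture. Of 12 genes listed, 10 were measured, and 10 of 10 lay above DMSO with a median of 0.24. No member passed, 6 had an unadjusted p under 0.05, and in 6 the groups did not overlap. LSS was highest at 0.38, followed by DHCR7, the last enzyme of the route to cholesterol, at 0.32. CYP51A1 itself read 9.72, 9.77 and 9.51 with DMSO and 9.96, 10.11 and 9.81 at 10 µM. The groups were only just separate, and the log2 change of 0.29 ± 0.09 did not pass (limma, adjusted p = 0.808). Its second probe set gave 0.11. SQLE, the squalene epoxidase at the entry of this stretch, had the lowest value of the list, 0.10, and overlapping groups in its brightest probe set. Other SQLE probe sets gave 0.24 and 0.06, and a dim one 0.16.

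On single arrays both stretches separated treated from control. Averaged over the 8 mevalonate genes and set against the DMSO mean, the DMSO arrays lay at 0.04, -0.01 and -0.03 and the treated arrays at 0.29, 0.37 and 0.23. Over the 10 genes from squalene on, the values were 0.03, 0.02 and -0.05 against 0.25, 0.26 and 0.18. The lowest treated array was thus well above the highest DMSO array in both stretches, and all 3 treated arrays were of similar height.

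Among the regulators of these enzymes, SREBF1 and SREBF2, which encode the SREBP factors, had log2 changes of 0.04 and -0.01 with overlapping groups, and these values changed sign when another choice of probe sets was made. Another SREBF2 probe set gave 0.28 (unadjusted p = 0.047), and the last gave 0.07. Of 17 genes listed for sterol sensing and cholesterol uptake, 14 were measured, 9 lay above DMSO, and the median was 0.05. No member passed over all genes, and 2 had an unadjusted p under 0.05, both upward: STARD4, a cytosolic sterol carrier (0.30), and NPC1, which exports cholesterol from lysosomes (0.15). SCAP, the SREBP escort, had a log2 change of 0.07.

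Fatty acid synthesis genes lay above DMSO in 12 of 13 measured members, with a median of 0.13. ACSS2 passed, 3 members had an unadjusted p under 0.05, and in 5 the groups did not overlap. FASN, the fatty acid synthase, read 7.33, 7.33 and 7.40 with DMSO and 7.75, 7.57 and 7.47 at 10 µM (log2 change 0.24). ACLY, which makes cytosolic acetyl-CoA from citrate, had a log2 change of 0.17, and the desaturase SCD 0.13 with overlapping groups in its brightest probe set. The other 4 SCD probe sets gave 0.46, 0.34, 0.32 and 0.11. When every probe set of the array was tested by itself, that with 0.46 passed (limma, adjusted p = 0.0119), as the 1 further call beside CYP1A1, ACSS2 and ARRDC4, so the result for SCD depended on the probe set. Of 13 genes of triglyceride synthesis and lipid droplets, 8 lay above DMSO with a median of 0.02. No member passed, and 3 had an unadjusted p under 0.05, all upward: LPIN1, PNPLA3 and DGAT1, an acyltransferase of triglyceride synthesis (0.18). The droplet coat gene PLIN2 had a log2 change of 0.02, so this list held a few high members among many near 0.

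**Figure D3:**
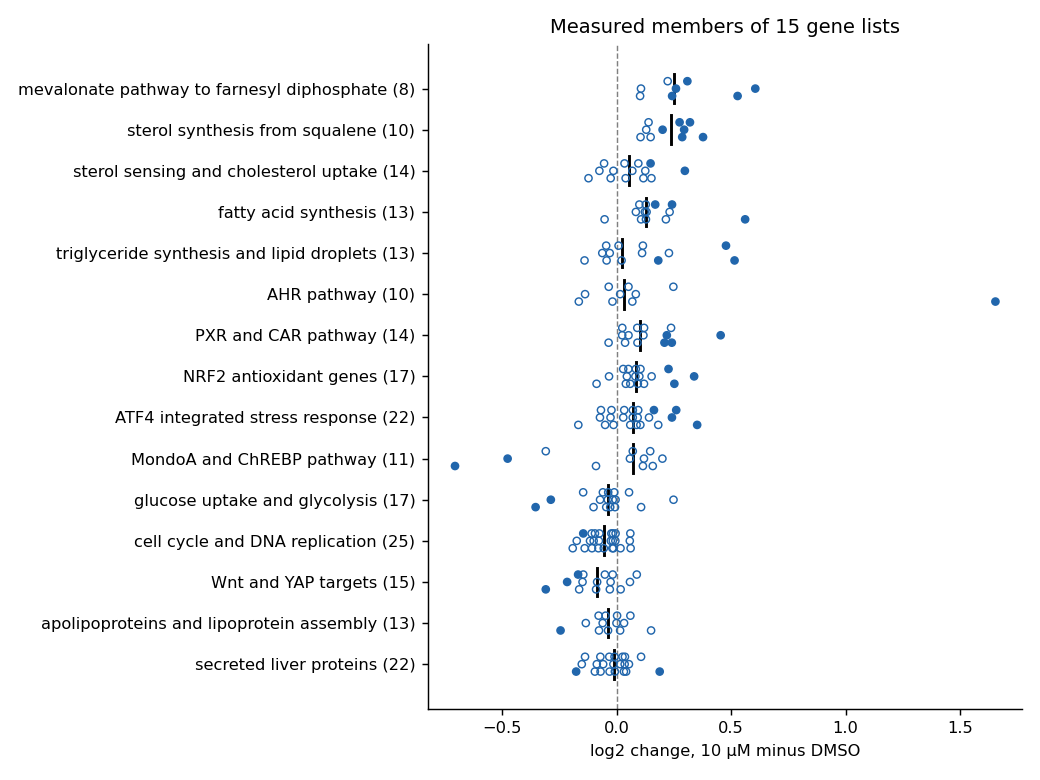
Log2 change at 10 µM fenbuconazole against DMSO (horizontal axis) for the measured members of 15 gene lists (rows, number measured in brackets), filled where the unadjusted p was under 0.05. Black bars are list medians and the dashed line is the median of all genes. The sterol lists lie wholly to the right of 0, with medians of 0.25 and 0.24, while the AHR list holds CYP1A1 alone at the far right.

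To show the sequence context of the genes at both ends of the response, the 250 bases upstream of the first RefSeq start (GRCh38.p14) are printed for CYP1A1, for 2 sterol genes and for ARRDC4. CYP1A1 lies at chr15:74725529-74725778 (minus strand), HMGCS1 at chr5:43313413-43313662 (minus strand), MVD at chr16:88663092-88663341 (minus strand) and ARRDC4 at chr15:97960453-97960702 (plus strand). Capitals mark GCGTG, the core of the element bound by AHR, in CYP1A1, CCAAT, the box of the factor NF-Y that works beside SREBP, in HMGCS1 and MVD, and CACGTG, an E-box of the kind bound by MondoA and ChREBP, in ARRDC4, each searched on both strands, so that ATTGG is the reverse of CCAAT. Every sequence is written 5′ to 3′ in the direction of the gene.
CYP1A1: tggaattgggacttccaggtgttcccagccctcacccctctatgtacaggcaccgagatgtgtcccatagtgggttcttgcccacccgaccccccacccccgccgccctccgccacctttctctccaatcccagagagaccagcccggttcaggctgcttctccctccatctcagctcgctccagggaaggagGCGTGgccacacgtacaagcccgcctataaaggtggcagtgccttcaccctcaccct
HMGCS1: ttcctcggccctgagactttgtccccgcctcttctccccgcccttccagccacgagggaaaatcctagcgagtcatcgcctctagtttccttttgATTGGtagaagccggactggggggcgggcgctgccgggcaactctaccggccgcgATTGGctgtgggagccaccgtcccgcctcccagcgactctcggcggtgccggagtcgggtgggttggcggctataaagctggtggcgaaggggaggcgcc
MVD: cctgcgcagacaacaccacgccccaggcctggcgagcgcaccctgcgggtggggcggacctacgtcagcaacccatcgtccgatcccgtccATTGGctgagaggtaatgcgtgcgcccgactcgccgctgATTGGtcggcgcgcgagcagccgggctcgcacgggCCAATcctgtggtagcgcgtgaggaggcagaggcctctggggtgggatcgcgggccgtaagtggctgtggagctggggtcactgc
ARRDC4: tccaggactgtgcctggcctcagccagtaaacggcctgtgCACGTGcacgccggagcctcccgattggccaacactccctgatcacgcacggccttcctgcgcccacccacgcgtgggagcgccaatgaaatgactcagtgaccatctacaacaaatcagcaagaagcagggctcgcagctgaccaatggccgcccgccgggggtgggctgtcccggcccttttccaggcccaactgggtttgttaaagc

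The marked letters stand at -57 from the start in CYP1A1, at -155 and -100 in HMGCS1, at 3 places between -159 and -85 in MVD and at -210 in ARRDC4. Of 35116 RefSeq promoters, GCGTG was found upstream in 32.2%, CCAAT in 32.0% and CACGTG in 6.34%. Among the 16 measured sterol synthesis genes with an entry, 14 had CCAAT in at least 1 of their upstream windows, against 39.8% of 15399 measured genes. GCGTG was as frequent in them, in 14 of 16, against 45.8% of measured genes, and CACGTG was found in 1. The sterol element TCACNCCAC, found in 0.883% of promoters, was in none of the 16. ACSS2 had CCAAT at -123. TXNIP had CCAAT at -140 and -105 and no CACGTG in this window. These matches are descriptions of the letters and no test was made.

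The AHR list was carried by CYP1A1. All 10 genes were measured, 6 lay above DMSO, the median was 0.03, and CYP1A1 was the 1 member past the threshold and also the 1 with an unadjusted p under 0.05. CYP1A2, its close relative in liver, read 4.22, 3.54 and 3.69 with DMSO and 4.10, 3.66 and 3.85 at 10 µM, with overlapping groups. CYP1B1, another enzyme of the family, was at 2.76 with DMSO, in the range of undetected genes, with a log2 change of 0.02. The AHR gene itself had a log2 change of -0.03 ± 0.18, TIPARP, a feedback inhibitor of AHR, 0.07 and AHRR, its repressor, -0.14. ALDH3A1 was the other member with separate groups (0.25, unadjusted p = 0.118).

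Of 19 genes listed for PXR and CAR, 14 were measured, and 13 of 14 lay above DMSO, with a median of 0.10. In limma no member passed. At an unadjusted p under 0.05 there were 4 members, and 4 had groups that did not overlap. CYP3A7, the fetal CYP3A enzyme, read 3.83, 3.78 and 4.10 with DMSO and 4.13, 4.61 and 4.35 at 10 µM, separate groups with a log2 change of 0.45 ± 0.12 (limma, adjusted p = 0.475). Its mean with DMSO was 3.91, near background, and its other probe sets gave 0.40 and -0.08. CYP3A4 (0.02) and CYP2B6 (-0.04), the classic targets of both receptors, lay at 3.92 and 2.96 with DMSO, at or below the level where signal and background part, and their groups overlapped. The CYP3A genes are near-identical copies, so their probe sets may share signal. ABCC2, which exports conjugates into bile, had a log2 change of 0.24, ALAS1, the first enzyme of haem synthesis, 0.21 and SULT2A1, a sulfotransferase of steroids and bile acids, 0.22. NR1I3, which encodes CAR, was at 2.94 with a log2 change of 0.05.

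Genes of NRF2, the factor of the antioxidant response, lay above DMSO in 15 of 17 measured members (19 listed), with a median of 0.08. No member passed, 3 lay upward at an unadjusted p under 0.05, and in 5 the groups did not overlap. All 3 were aldo-keto reductases. AKR1B10 read 7.80, 7.84 and 7.83 with DMSO and 8.09, 8.27 and 8.13 at 10 µM (log2 change 0.34 ± 0.07, limma, adjusted p = 0.0681). AKR1C1 (0.23) and AKR1C2 (0.25) were among the brightest genes of the array, above 12 in both groups, and as near-identical copies they cannot be told apart with certainty. HMOX1, the haem oxygenase used as a marker of oxidative stress, had a log2 change of 0.03 with overlapping groups, and NQO1 had 0.08.

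The ATF4 list, genes of amino acid supply and of the integrated stress response, held 22 members, of which 15 lay above DMSO, with a median of 0.07. No member passed, and 4 had an unadjusted p under 0.05, all upward. TRIB3, a pseudokinase that feeds back on ATF4, read 8.54, 8.49 and 8.38 with DMSO and 8.79, 8.78 and 8.90 at 10 µM (log2 change 0.35 ± 0.08, limma, adjusted p = 0.197). ASNS, the asparagine synthetase, had 0.26, GDF15, a secreted stress hormone, 0.24 and STC2 0.16, all with separate groups. The ER chaperone list, by comparison, had a median of 0.02, with 9 of its 16 members above DMSO, and no member with an unadjusted p under 0.05.

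The fall of ARRDC4 and the low values of TXNIP were not shared by the rest of the MondoA and ChREBP list, which holds the sugar-sensing factors and their targets. Of 11 members, 7 lay above DMSO and the median was 0.07. ARRDC4 passed, and ARRDC4 and TXNIP were the 2 members with an unadjusted p under 0.05. The factor genes MLXIP (-0.09), MLXIPL (0.20) and MLX (0.06) had overlapping groups, as did PKLR, the liver pyruvate kinase gene and a ChREBP target (0.07). The relatives ARRDC2 (0.15) and ARRDC3 (0.12) lay above DMSO, also with overlap.

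Glucose uptake and glycolysis genes lay mostly below DMSO, in 14 of 17 measured members (18 listed), but the median was small, -0.04. No member passed over all genes. The 2 members with an unadjusted p under 0.05 were both transporters, SLC2A2 (-0.35) and SLC2A3 (10.25, 10.07 and 10.12 with DMSO, 9.90, 9.74 and 9.94 at 10 µM, log2 change -0.29). A second SLC2A3 probe set of about the same brightness gave -0.08, and a dimmer one gave -0.17. SLC2A1, the transporter of most cell types, had -0.07 and overlapping groups. The enzymes HK2 (-0.05) and LDHA (-0.06), at the entry and the end of the pathway, also had overlapping groups.

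Cell cycle and DNA replication genes lay below DMSO in 21 of 25 members, with a median of -0.06. No member passed, and 1 had an unadjusted p under 0.05, CCNB2, a cyclin of mitosis, at -0.15. The Wnt and YAP list lay below DMSO in 12 of 15 measured members with a median of -0.09, and 3 of its members had an unadjusted p under 0.05: DKK1, CCN2 (-0.17) and AJUBA (-0.22). The groups overlapped for AJUBA, and another AJUBA probe set of about the same brightness gave 0.10. The heat shock list lay below in 8 of 10 members (median -0.07, no member with an unadjusted p under 0.05). With array spread as a covariate these 3 medians kept their sign.

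Liver identity genes showed little. Of 22 measured secreted liver proteins, 13 lay below DMSO with a median of -0.01. The fibrinogen chain gene FGA had a log2 change of -0.18 and the coagulation factor gene F10 0.19, each with overlapping groups. Apolipoprotein genes had a median of -0.04, with APOM, a carrier of sphingosine phosphate on lipoproteins, at -0.25 and overlapping groups. Outside the lists, C8B, a complement subunit, read 5.33, 5.56 and 5.23 with DMSO and 5.08, 5.01 and 4.86 at 10 µM, separate groups with a log2 change of -0.39 ± 0.09 (limma, adjusted p = 0.202). No member of either list passed against DMSO. In a bulk culture such as this, fewer cells with a transcript and less of it per cell cannot be told apart.

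In the haem and iron list, 7 of 14 measured members lay above DMSO, the median was 0.01, and 3 had an unadjusted p under 0.05, all upward. HAMP, which encodes the iron hormone hepcidin, read 9.16, 9.05 and 9.34 with DMSO and 9.47, 9.42 and 9.59 at 10 µM (log2 change 0.31). ALAS1 and ALAD, the first enzymes of haem synthesis, had 0.21 and 0.22. The other probe set of ALAD gave -0.17. Of 19 measured bile acid and oxysterol genes 12 lay above DMSO, with a median of 0.04 and 1 member at an unadjusted p under 0.05. This was SLC51B, a subunit of the bile acid exporter, which read 5.10, 4.90 and 4.99 against 5.48, 5.45 and 5.30 (log2 change 0.41 ± 0.12, limma, adjusted p = 0.601). In each of these 4 genes the groups were separate, and no call was made.

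The remaining lists had medians between -0.07 and 0.04. They were PPARA and fatty acid oxidation (0.004), p53 targets (-0.001), gluconeogenesis and insulin signalling (-0.04), metallothioneins (-0.02), liver transcription factors (-0.07), hypoxia (-0.02), immediate early genes (0.04), the interferon response (-0.01), the respiratory chain (-0.005) and steroid hormone metabolism (0.01), beside the mesenchymal markers (-0.004) and those of blood and endothelial cells (-0.02). No member of these lists passed. KLF6, an early response factor, had a log2 change of 0.24 with separate groups. Its other probe sets gave 0.10, 0.06 and 0.08, and a dim one -0.03. CDKN1A, the cell cycle inhibitor induced by p53, had 0.13 and PDK4, a kinase induced through PPARA, 0.14, both with overlapping groups. IFI27, an interferon-stimulated gene, had -0.52 with separate groups, but at 3.08 with DMSO it lay among undetected genes. HSD3B1, of steroid synthesis, had 0.29, at a level of 2.44 with DMSO.

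Outside the lists, the genes with the highest and the lowest log2 changes were looked for among genes with separate groups, an unadjusted p under 0.01 and a mean of 4 or more in at least 1 group. In all, 54 genes upward and 51 downward met these conditions, and 24 of the 54 and 6 of the 51 were members of a list. On the upper side BMP1, a protease of procollagen and a growth factor activator (0.51), EXOC3, of the exocyst (0.43), RNF41, a ubiquitin ligase (0.43), and RARG, a retinoic acid receptor (0.43), stood beside the lipid genes and CYP3A7. BMP1, RARG and CYP3A7 had DMSO levels of 3.77, 3.68 and 3.91. The second probe sets of EXOC3 (-0.25) and RNF41 (-0.03) had the opposite sign, as did the other ones of RARG (-0.11 and -0.18). Those of BMP1 gave values between -0.05 and 0.31.

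On the lower side PLEKHM3 had the same log2 change as ARRDC4, -0.71, but a standard error of 0.23 (limma, adjusted p = 0.808): it read 4.30, 3.88 and 4.33 with DMSO and 3.86, 3.03 and 3.49 at 10 µM. Its second probe set gave -0.03, at a level among undetected genes. ADH4, a liver alcohol dehydrogenase, read 7.65, 7.32 and 7.06 against 6.95, 6.47 and 6.77 (-0.61 ± 0.18), and its 3 other probe sets had the same sign. NANOS1 (-0.66), MTRF1, a mitochondrial release factor (-0.59), KLHDC7A (-0.54), PRIMPOL, a primase and polymerase (-0.50), RNF144B (-0.47), DNAJC9-AS1 (-0.47), DLX6 (-0.47) and MEIS1 (-0.47) completed the lower end with TXNIP. Other probe sets of several of these genes did not follow. Those of DLX6 gave 0.10 and 0.24, those of RNF144B 0.23, -0.19 and 0.15, those of MEIS1 0.04 and 0.11 and those of MTRF1 0.04 and -0.11. With the mean of all probe sets DLX6 had a log2 change of -0.04 and RNF144B one of -0.07. In MTRF1, PRIMPOL and RNF144B, array 1 at 10 µM lay close to the DMSO arrays and arrays 2 and 3 well below. MTRF1 and PRIMPOL passed when 10 µM replicate 1 was left out (limma, adjusted p = 0.00696 and 0.0374). DNAJC9-AS1 is an antisense gene, and the strand its probe set reads was not checked.

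The lower doses, which share no array with the comparison at 10 µM, gave a separate view of the same genes. The slope per 10-fold dose was fitted over the 24 arrays from 0.001 to 3 µM. Over all genes 0 slopes passed (limma), with 1597 (8.08%) at an unadjusted p under 0.05, 675 upward (3.41%) and 922 downward (4.66%), and 1 passed when all probe sets of a gene were averaged. Positive slopes made up 45.9% of all genes and 51.0% of those with a mean of 4 or more. In the sterol synthesis genes 16 of 18 slopes were positive, 9 of them with an unadjusted p under 0.05, while PMVK had a negative slope at that level. HMGCS1 had 0.10 ± 0.02, NSDHL, a decarboxylating dehydrogenase of sterols, 0.09, MSMO1, the sterol methyl oxidase, 0.08, MVD 0.07 and LSS 0.07 (log2 per 10-fold dose). NSDHL and MSMO1, with steep slopes, were among the members with small changes at 10 µM, 0.13 and 0.14. For NSDHL this depended on the probe set. Its second one, nearly as bright, gave 0.29 at 10 µM (limma, unadjusted p = 0.00944).

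The median of the 18 sterol genes against DMSO was between 0.03 and 0.04 at doses from 0.001 to 0.3 µM, 0.09 at 1 µM, 0.17 at 3 µM and 0.25 at 10 µM. These medians share their 3 DMSO arrays. CYP1A1 had log2 changes of 0.18 at 0.3 µM, 0.45 at 1 µM, 0.84 at 3 µM and 1.65 at 10 µM, and neither 1 µM nor 3 µM passed (limma). Its slope up to 3 µM was 0.19 ± 0.05 (unadjusted p = 0.00114). ACSS2 stayed between -0.06 and 0.12 up to 3 µM and reached 0.56 at 10 µM. LPIN1 was at 0.15 at 3 µM and 0.48 at 10 µM. By group means the course was thus graded in CYP1A1 and HMGCS1, while ACSS2 departed from DMSO at the top dose.

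ARRDC4 took another course. Its group mean lay below DMSO at 0.001 µM (-0.19) and 0.003 µM (-0.27), above it from 0.03 to 3 µM (0.06 to 0.12), and then at -0.71 at 10 µM. The slope over the doses up to 3 µM was positive, 0.10 per 10-fold dose (unadjusted p = 1.7e-04, limma, adjusted p = 0.44), against the fall at the top dose. TXNIP did not share this course: it lay between -0.06 and 0.17 up to 3 µM with a slope of -0.03. In both genes the 3 arrays at 10 µM lay below every array of the lower doses.

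**Figure D4:**
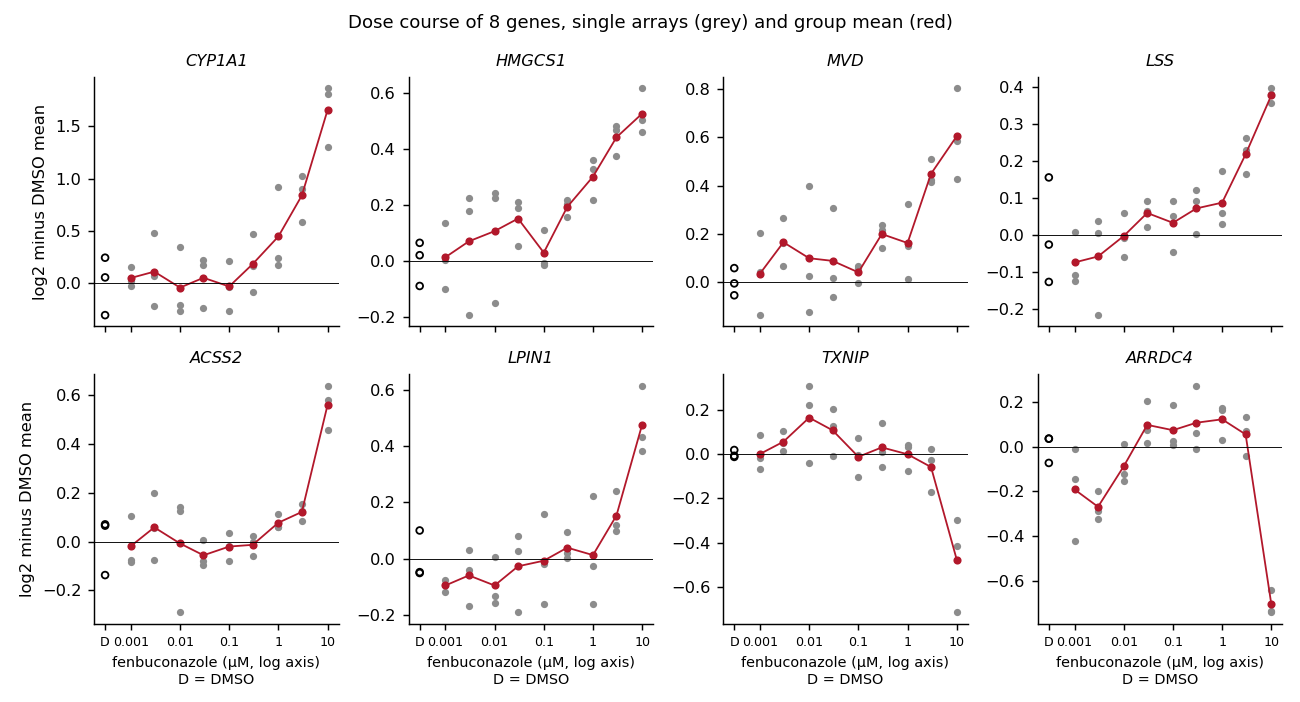
Log2 intensity minus the DMSO mean (vertical axis) by fenbuconazole dose in µM (horizontal log axis) for 8 genes, with single arrays in grey, group means in red and the 3 DMSO arrays as open circles at D. CYP1A1 and HMGCS1 climb from 0.3 µM on, while ACSS2, LPIN1, TXNIP and ARRDC4 lie farthest from DMSO at 10 µM, with ARRDC4 also below DMSO at the lowest doses.

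In some other groups the lower doses and 10 µM went different ways. In the NRF2 list 15 of 17 members lay above DMSO at 10 µM, but 4 of 17 had a positive slope up to 3 µM, and AKR1C1 and AKR1C2 had slopes of -0.04 each (unadjusted p = 0.0183 and 0.0263). CYP3A7 had a slope of -0.09 (unadjusted p = 0.00241) before its value of 0.45 at 10 µM. In the ATF4 list both were mostly upward, with 15 of 22 members above DMSO and 18 of 22 slopes positive. For all genes with the highest changes at 10 µM, 35 of 54 had a positive slope (64.8%, against 45.9% of all genes). For those with the lowest changes 26 of 51 had a negative slope (51.0%, against 54.1% of all genes). Both sets were held to a mean of 4 or more in at least 1 group. Their nearer background is thus the genes with a mean of 4 or more, of which 51.0% had a positive slope.

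When the 9 arrays of the 3 lowest doses were taken as the baseline in place of DMSO, 12 genes passed (limma, 0.0607% of 19774), 8 up (0.0405%) and 4 down (0.0202%). CYP1A1 (log2 1.61), LPIN1 (0.56), ACSS2 (0.55), MVD (0.51), HMGCS1 (0.46), LSS (0.42), LRP8 (0.42) and AKR1B10 (0.29) rose, and TXNIP (-0.55), ARRDC4 (-0.52), C8B (-0.43) and DKK1 (-0.26) fell. This baseline shares the 3 treated arrays with the comparison against DMSO, so it is no second measurement of the treated cells. PNPLA3 (0.38, adjusted p = 0.112) and SLC2A2 (-0.29, 0.0685) did not pass against the lowest doses. Without replicate 1 or 3 of every group the count fell to 1, and without replicate 2 it was 6.

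At the same dose, fenbuconazole was set against imazalil and against 2,4-D, 2 pairs of compounds, each after subtraction of the DMSO mean of its own set and with p-values adjusted over all genes in each pair. The DMSO columns of the 3 sets are copies of the same 3 arrays. Fenbuconazole carries a triazole ring and imazalil an imidazole ring, while 2,4-D is no azole. Against imazalil 8 genes differed (limma, 0.0405% of 19774), 4 higher and 4 lower with fenbuconazole (0.0202% each). CYP1A1 was lower with fenbuconazole by a log2 difference of -1.36 ± 0.22 (adjusted p = 0.00279), at 1.65 against 3.01. MCC, KCNJ10 and SLC17A5 were also lower (-0.96, -0.46 and -0.36), and NHEG1, SPON2, ARID5B and TACC1 were higher (0.60, 0.43, 0.36 and 0.31). MCC and NHEG1 were dim in the fenbuconazole set, with means of 3.05 and 2.63 with DMSO. Except for CYP1A1, none of these 8 passed with fenbuconazole against DMSO (log2 changes from -0.08 to 0.32). TACC1 (0.20) and NHEG1 (0.32) lay above DMSO in 18 of 18 and 17 of 17 alternatives, which reuse the same arrays. So did MCC (0.08), in 17 of 17. The other TACC1 probe sets gave values between -0.06 and 0.08. With the mean of all probe sets of a gene, TACC1, ARID5B, KCNJ10 and SLC17A5 did not pass against imazalil.

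No sterol gene passed against imazalil with all genes tested, but HMGCS1 and LSS passed when dim genes were left out. The difference was 0.49 ± 0.10 for HMGCS1 (adjusted p = 0.0637), 0.33 ± 0.07 for LSS (0.0718) and 0.26 ± 0.09 for CYP51A1 (0.328), all higher with fenbuconazole. The median change of the mevalonate list was 0.25 with fenbuconazole and 0.07 with imazalil, and that of the list from squalene 0.24 and 0.06. ARRDC4 read nearly alike with both azoles, -0.71 and -0.65, and TXNIP had -0.48 and -0.85 (difference 0.38 ± 0.10, adjusted p = 0.216). ALAS1 (0.21 and 0.52) and HAMP (0.31 and 0.60) lay lower with fenbuconazole, also without passing.

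Against 2,4-D 18 genes differed (limma, 0.091% of 19774), 15 higher (0.0759%) and 3 lower (0.0152%) with fenbuconazole. Of the 15, MVD (log2 difference 0.76), HMGCS1 (0.61), LSS (0.47), DHCR7 (0.41) and HSD17B7 (0.39) are enzymes of sterol synthesis, and ACSS2 (0.65), PNPLA3 (0.58), LPIN1 (0.53) and LRP8 (0.50) belong to lipid metabolism and uptake. CYP1A1 (1.62) had the widest difference. SLC51B (0.80) read 0.41 with fenbuconazole and -0.38 with 2,4-D. ASNS (0.32), HES6 (0.41), HHIPL1 (0.67) and ARHGAP36 (0.50) completed the 15, and ARRDC4 (-0.60), ZNF606 (-0.57) and DKK1 (-0.27) were lower. ARHGAP36, below 3 in both groups, and HHIPL1, at 3.14 with DMSO, lay among undetected genes in the fenbuconazole set. The medians of the sterol lists with 2,4-D were -0.06 and -0.05.

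**Figure D5:**
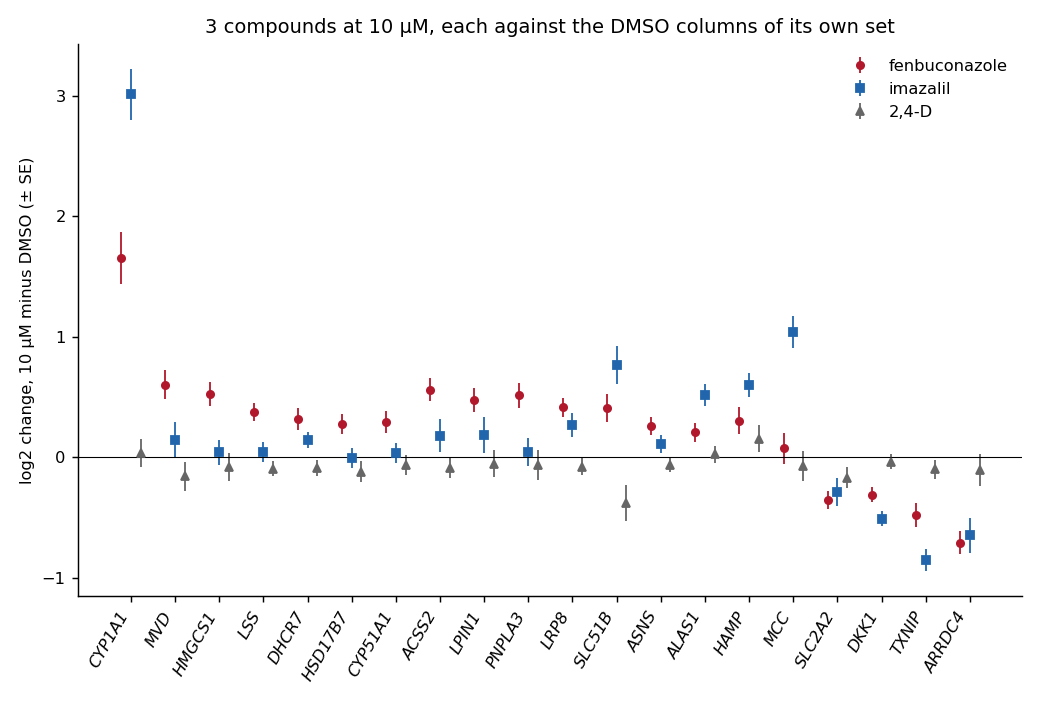
Log2 change at 10 µM against DMSO (vertical axis, with standard error, n = 3 arrays per group) of 20 genes (horizontal axis) for fenbuconazole, imazalil and 2,4-D, each from the fit of its own set. The sterol genes lie highest with fenbuconazole, CYP1A1 with imazalil (3.01 against 1.65), and ARRDC4 lies low with both azoles.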

How the data were processed

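Total RNA of HepG2 cells was read on Affymetrix HT HG-U133+ PM arrays, 3 per group. Values were deposited as log2 intensities per probe set, which the authors normalized by RMA within each compound's set, DMSO arrays included; RMA and Partek are named in the submitters' processing notes, with versions not given in the sources used here. Values of different sets were compared only after subtraction of each set's DMSO mean. Of 54715 probe sets, 102 were controls, 40914 had 1 gene symbol, 864 several and 12835 none; 40858 matched the RefSeq annotation by Entrez identifier. Each gene was read by its brightest probe set over the 90 columns, with no filter on dim genes. The level of 4 used in the text to set off dim genes is a convention.

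In R 4.3.3 with limma 3.58.1, the 30 columns of the fenbuconazole set were fitted (lmFit, eBayes) with 1 mean per dose and no replicate block, which leaves 20 residual degrees of freedom; p-values were two-sided and adjusted by Benjamini-Hochberg over 19774 genes at 0.05. Slopes and compound differences were fitted likewise. The scripts were tested on simulated data. Genes were named by a rule: those past the threshold, the 12 highest and 12 lowest log2 changes with separate groups and an unadjusted p under 0.01, up to 4 members per list with the lowest p under 0.05, the leading genes of the other comparisons, and a fixed set of sterol, AHR, PXR and CAR genes. PIK3R5 and list members without a low p were named after their values were seen. Of 475 entries in 31 lists, 436 were measured. The members and lists were chosen with earlier results of these data known. Promoters came from RefSeq (GRCh38.p14). Alternatives comprised other variance models, probe set choices, normalization, covariates for array spread and 3' to 5' signal, the replicate block and leaving out arrays.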

Additional observations from a re-analysis of the deposited data

Results flagged for a closer look

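Differences between fenbuconazole and another compound at 10 µM were singled out where the difference itself passed (limma, adjusted over all genes, log2, fenbuconazole minus the other compound). Against imazalil these were CYP1A1 (-1.36), MCC (-0.96), KCNJ10 (-0.46), SLC17A5 (-0.36), TACC1 (0.31), ARID5B (0.36), SPON2 (0.43) and NHEG1 (0.60). Against 2,4-D the lower genes were ARRDC4 (-0.60), ZNF606 (-0.57) and DKK1 (-0.27). The higher genes were ASNS (0.32), HSD17B7 (0.39), DHCR7 (0.41), HES6 (0.41), LSS (0.47), LRP8 (0.50), ARHGAP36 (0.50), LPIN1 (0.53), PNPLA3 (0.58), HMGCS1 (0.61), ACSS2 (0.65), HHIPL1 (0.67), MVD (0.76), SLC51B (0.80) and CYP1A1 (1.62). Groups of 3 arrays were not examined for outlying arrays.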

How the results depend on the processing

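Against DMSO, where 3 genes were called, the count was 14 with dim genes left out, 10 with a trended robust variance, 9 with the mean of all probe sets of a gene and 0 (limma) in the 2 groups alone, where 816 genes had an unadjusted p under 0.05. Leaving out arrays gave 0 to 4. Against the 3 lowest doses (12) the count was 30 with dim genes left out, 21 with the trended variance, 22 with array spread as a covariate and 1 to 6 without a replicate. For the slope (0) it was 1 with the mean of all probe sets. Against imazalil (8) it was 4 with array spread as a covariate and 0 to 2 without a replicate, and against 2,4-D (18) it was 48 with that covariate and 4 without any 1 replicate. Apart from the smaller number of genes or arrays, the cause was not tested.

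With the replicate number as a block the counts were 4 against DMSO, 16 against the lowest doses, 0 for the slope, 13 against imazalil and 24 against 2,4-D. Deviations from the group mean in same-numbered DMSO and 10 µM arrays had correlations of 0.39, 0.21 and 0.08. Over all 10 groups of the fenbuconazole set the mean correlation was 0.04 for the same number and -0.02 for different numbers. The numbers were not taken as pairs in the main fit, which leaves out any such link between arrays. The labels carry a code, P1 to P3, that equals the replicate number and is not explained. The further gene called against DMSO with the block was HMGCS1 (limma, adjusted p = 0.0249), and HMGCS1 and LSS were among those called against imazalil.

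Small log2 changes turned sign. With the mean of all probe sets CDKN1A had -0.016, CYP2B6 0.029, SREBF1 -0.074 and SREBF2 0.11. With joint quantile normalization CYP1B1 had -0.0069 and SREBF2 0.0061. AHR had 0.094 with array spread and 0.11 with ACTB 3' minus 5' signal as a covariate, and KCNJ10 9.75e-05 with the GAPDH signal. Without single arrays or replicates the ranges were -0.26 to 0.13 for AHR, -0.088 to 0.26 for CYP1A2, -0.065 to 0.069 for CYP1B1, -0.16 to 0.12 for CYP2B6, -0.075 to 0.14 for CYP3A4, -0.090 to 0.13 for HMOX1, -0.096 to 0.033 for KCNJ10, -0.036 to 0.14 for NR1I3, -0.15 to 0.048 for SLC17A5, -0.14 to 0.11 for SPON2, -0.13 to 0.13 for SREBF1 and -0.11 to 0.073 for SREBF2. The medians of both sterol lists kept their sign in 18 of 18 alternatives, between 0.18 and 0.29 for the mevalonate list and 0.18 and 0.27 for the list from squalene. Genes under 4 lay near background, where a small change cannot be read.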
